A study of Mus musculus with 8 samples.

Results

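The response to lipopolysaccharide (LPS) was followed in macrophages that lack Lamin-A (KO), by comparing the 2 peak lists of LPS-treated KO cells with the 2 peak lists of untreated KO cells. Overlapping peaks of these 4 lists were merged, which gave 62632 regions. A region was gained when both LPS lists and neither untreated list held it, which was the case for 6272 regions (10.0%). A region was lost in the reverse case, which held for 4372 regions (6.98%). Another 32347 regions (51.6%) were held by all 4 lists, and in these the rank of each peak within its own list was compared between treatments. The remaining 19641 regions were split within a treatment and belong to neither class.

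The assay was ATAC-seq, in which the Tn5 transposase inserts adapters into accessible DNA, and the study's question was how accessibility responds to LPS and what Lamin-A contributes. Its 8 libraries were wild type (WT) or KO and untreated or LPS-treated, with 2 libraries in each of the 4 groups. In all groups, bone marrow cells were grown into macrophages for 7 days, and frozen in medium with 5% DMSO before tagmentation. LPS, where given, was present for 6 h. The labels state neither the targeted part of Lmna, the LPS dose, the sex of the mice nor whether the replicates are separate animals, so p-values measure the spread between these libraries, which may be technical. For LPS libraries the source name reads untreated as well, so titles and the treatment field were followed.

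Macrophages sense LPS, a component of the outer membrane of Gram-negative bacteria, through Toll-like receptor 4 (TLR4). The receptor signals through the adaptors MyD88 and TRIF to NF-kB, to MAP kinases that act on AP-1 factors, and to IRF3, which starts an interferon response. In macrophages these factors act at promoters and at distal enhancers that lineage factors such as PU.1 have already opened, and at enhancers that open after the stimulus. Lamin-A is a filament protein of the nuclear lamina, the meshwork under the inner nuclear membrane that anchors part of the chromatin.

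Promoter sequences of 10 genes are printed here because their regions turn up in the comparisons that follow, from RefSeq for the GRCm38.p6 (mm10) build, each running 5′ to 3′ on the gene's strand from 250 bases before to 50 bases after the start. Capitals mark matches on either strand to the AP-1 motif TGANTCA, the NF-kB motif (GGGA, any 4 bases, CC) and the interferon-stimulated response element (ISRE: GAAA, any 2 bases, GAAA), with overlapping matches joined. A match is a description of the letters. The first pair, of the cytokine gene Il1a and the interferon-induced GTPase gene Gbp5, held gained regions.
Il1a, chr2:129309923-129310222, minus strand: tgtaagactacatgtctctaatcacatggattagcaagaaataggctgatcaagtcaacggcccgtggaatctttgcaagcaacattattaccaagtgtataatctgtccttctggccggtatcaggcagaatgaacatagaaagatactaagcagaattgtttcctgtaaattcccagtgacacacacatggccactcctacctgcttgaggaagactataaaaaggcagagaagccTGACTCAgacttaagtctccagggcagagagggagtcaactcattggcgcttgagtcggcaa
Gbp5, chr3:142496684-142496983, plus strand: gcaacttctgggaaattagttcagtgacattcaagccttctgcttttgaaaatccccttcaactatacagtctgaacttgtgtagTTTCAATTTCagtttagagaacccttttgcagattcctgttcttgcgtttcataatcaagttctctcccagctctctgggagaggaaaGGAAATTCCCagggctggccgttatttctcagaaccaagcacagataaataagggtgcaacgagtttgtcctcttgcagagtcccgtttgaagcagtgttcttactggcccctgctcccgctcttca
The next 6 held regions that were raised with LPS. They belong to the cytokine gene Il6, to Acod1, which makes the antimicrobial metabolite itaconate, and to the interferon response genes Gbp2, Ifit1, Isg15 and Rsad2.
Il6, chr5:30012864-30013163, plus strand: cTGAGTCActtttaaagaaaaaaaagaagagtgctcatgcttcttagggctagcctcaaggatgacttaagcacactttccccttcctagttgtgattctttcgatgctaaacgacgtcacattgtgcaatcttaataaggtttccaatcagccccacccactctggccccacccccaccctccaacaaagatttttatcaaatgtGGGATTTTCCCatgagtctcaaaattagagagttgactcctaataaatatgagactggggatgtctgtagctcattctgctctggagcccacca
Acod1, chr14:103046762-103047061, plus strand: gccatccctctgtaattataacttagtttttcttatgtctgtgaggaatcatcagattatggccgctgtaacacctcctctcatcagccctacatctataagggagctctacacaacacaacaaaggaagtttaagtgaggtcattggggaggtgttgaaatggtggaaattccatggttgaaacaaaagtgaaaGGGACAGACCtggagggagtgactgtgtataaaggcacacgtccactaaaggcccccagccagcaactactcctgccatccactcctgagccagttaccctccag
Gbp2, chr3:142620413-142620712, plus strand: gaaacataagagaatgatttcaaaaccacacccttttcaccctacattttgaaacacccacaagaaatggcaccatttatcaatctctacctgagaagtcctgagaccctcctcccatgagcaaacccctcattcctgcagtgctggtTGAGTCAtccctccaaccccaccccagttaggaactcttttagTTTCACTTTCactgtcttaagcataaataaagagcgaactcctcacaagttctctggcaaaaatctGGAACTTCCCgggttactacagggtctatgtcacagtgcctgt
Ifit1, chr19:34640639-34640938, plus strand: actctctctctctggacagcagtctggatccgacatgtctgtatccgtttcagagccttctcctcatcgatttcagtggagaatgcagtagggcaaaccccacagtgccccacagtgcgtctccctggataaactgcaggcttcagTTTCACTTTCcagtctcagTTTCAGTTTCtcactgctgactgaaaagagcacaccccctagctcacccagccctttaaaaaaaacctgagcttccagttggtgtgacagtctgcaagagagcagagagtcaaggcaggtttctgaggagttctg
Isg15, chr4:156200769-156201068, minus strand: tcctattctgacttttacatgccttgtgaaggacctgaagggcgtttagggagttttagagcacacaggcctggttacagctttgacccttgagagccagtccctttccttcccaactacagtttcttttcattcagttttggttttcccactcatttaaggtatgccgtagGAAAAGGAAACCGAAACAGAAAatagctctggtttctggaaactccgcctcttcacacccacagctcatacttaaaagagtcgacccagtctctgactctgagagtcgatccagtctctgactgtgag
Rsad2, chr12:26456403-26456702, minus strand: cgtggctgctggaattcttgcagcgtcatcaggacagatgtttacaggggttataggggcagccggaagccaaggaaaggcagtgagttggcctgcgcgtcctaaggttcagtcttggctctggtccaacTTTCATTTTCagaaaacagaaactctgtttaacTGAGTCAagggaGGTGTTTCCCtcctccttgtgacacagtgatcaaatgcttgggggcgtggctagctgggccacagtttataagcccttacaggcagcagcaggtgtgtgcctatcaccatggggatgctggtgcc
The last pair held regions that were lowered with LPS, at Irf4, a transcription factor of alternative macrophage activation, and at C1qb, a chain of complement C1q.
Irf4, chr13:30748983-30749282, plus strand: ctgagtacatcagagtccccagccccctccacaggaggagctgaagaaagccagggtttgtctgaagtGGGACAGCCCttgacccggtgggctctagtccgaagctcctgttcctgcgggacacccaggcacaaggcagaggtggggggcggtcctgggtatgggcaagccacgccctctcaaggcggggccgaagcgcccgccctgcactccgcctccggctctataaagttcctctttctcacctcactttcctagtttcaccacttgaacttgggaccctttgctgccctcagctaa
C1qb, chr4:136886151-136886450, minus strand: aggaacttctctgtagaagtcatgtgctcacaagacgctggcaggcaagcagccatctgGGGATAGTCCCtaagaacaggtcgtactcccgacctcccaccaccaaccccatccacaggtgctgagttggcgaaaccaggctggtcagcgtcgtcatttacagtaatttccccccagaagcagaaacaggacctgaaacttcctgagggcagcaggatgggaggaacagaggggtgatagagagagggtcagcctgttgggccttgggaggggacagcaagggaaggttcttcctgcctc

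Lmna, the gene of Lamin-A, kept accessible regions in every KO library. Of its 10 assigned regions 7 were held by all 4 lists, and none was gained, lost, raised or lowered. At 88503083-88503889 on chromosome 3, at a start site, the summit pileups (the reads stacked at a peak's summit) were 339 and 450 in the untreated libraries and 271 and 214 with LPS. The region at 88484558-88484979 had pileups of 74 and 89 untreated and 74 and 58 with LPS, and was in no WT list. These regions do not check the labels, since the targeted part is not known.

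The 4 lists held 44504 to 49661 peaks covering 17.9 to 20.1 Mb. The pileup was recovered from the deposited fold enrichment and p-value, is not scaled to depth, and rested on the same flat background of 5.53 reads in all libraries. The lowest called pileup was 23 or 24 reads, but a call is made against the local background, so sites differ in the pileup needed. The median local background at called peaks was 9.22 to 9.56 reads. Absence from a list means that no peak was called or kept, and DNA there need not be closed. In bulk material, fewer cells with an open region and less opening per cell cannot be told apart. Peak number was 45977.5 ± 2084 (SD, n = 2) untreated and 47551.5 ± 2983 (SD, n = 2) with LPS (exact permutation test, two-sided p = 0.667), and 0.333 is the smallest p that 2 against 2 allows. The median pileup was 81.5 ± 3.54 untreated and 75.5 ± 3.54 with LPS (SD, n = 2 each, exact two-sided p = 0.333), with both LPS lists below both untreated lists. Over the regions held by all 4 lists, the rank scores correlated at 0.928 between the untreated libraries and 0.92 between the LPS libraries, and at 0.744 to 0.766 across treatments.

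All 30 macrophage identity genes had a region, where 14586 of 21900 protein-coding genes had one. Around the start of Cd68, a lysosomal protein of macrophages, the pileups were 495 and 499 untreated and 421 and 369 with LPS. Around that of Itgam, an integrin of myeloid cells, they were 206 and 236, and 186 and 180. Defining genes of other blood cells had no assigned region: Cd79a, Cd79b, Pax5 and Ebf1 of B cells, Cd3e, Cd3g, Cd8a and Bcl11b of T cells, Gata1, Hba-a1 and Hbb-bs of erythroid cells, Kit and Fcer1a of mast cells, and Mpo of granulocyte precursors. Other markers of these lineages did have regions, in 3 of 7 B cell, 9 of 13 T and NK cell and 10 of 12 neutrophil genes. So did 5 of 12 erythroid, mast cell and platelet genes, 8 of 10 dendritic cell genes and 10 of 11 stromal and endothelial genes. Of the 11 regions of B cell markers 2 were gained and 1 was lost, and of the 18 of T and NK cell markers 0 were gained and 4 lost. The part of other cell types in the results was not tested.

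Gained and lost regions lay farther from gene starts than the regions held by all 4 lists, as did those split within a treatment. Of the gained regions, 3.82% were within 1 kb of a listed start site, against 7.26% of the lost regions and 25.6% of the regions held by all 4 lists. Of the split regions 8.84% were. The median distance to a start was 34.1 kb for gained, 28.6 kb for lost, 15.6 kb for shared and 26.2 kb for split regions. Gained and lost regions were also narrower and weaker than shared ones, with median widths of 334, 321 and 479 bp. Split regions had a median width of 276 bp and median pileups of 42 to 44. How far the rule itself sets these traits was not tested. Median pileups were 56 and 51 in the LPS libraries for gained regions and 47 and 52 in the untreated libraries for lost regions, against 91 to 117 for shared regions. Pileups reached 100 reads in both libraries at 506 gained (8.07%) and 186 lost regions (4.25%). A second region within 1 kb, held by both lists of the other treatment, stood beside 839 gained (13.4%) and 685 lost regions (15.7%). Leaving out KO LPS replicate 2 gave 10133 gained regions. Lost regions numbered 7889 without KO untreated replicate 1 and 7165 without KO LPS replicate 1.

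The strongest gained region lay 9.04 kb upstream of Ier5, an immediate early gene (chromosome 1, 155108429-155108943 of mm10, as for all coordinates here). Its pileups were 327 and 231 in the LPS libraries, with no peak in either untreated library, and 376 and 322 in the WT LPS libraries. The region 22.1 kb from Il10, which encodes an anti-inflammatory cytokine, lay on chromosome 1, 130997463-130997996 and had 290 and 244 with LPS. A region inside Denr, a factor of translation re-initiation (chromosome 5, 123908728-123909189), had 302 and 287, and 1 at Slco3a1, a membrane transporter of organic anions, had 321 and 278. All of these LPS pileups were many times the lowest called pileup of 23 or 24 reads, though a call needs more where the local background is higher. The other 11 of the 15 strongest were assigned to Alcam, Rbbp8, Abi1, Ube2z, St3gal1, Ktn1, Rap1gap2, Id2, Rybp, Alpk2 and Samsn1, and 158 was the lowest pileup among them. Both WT LPS lists held all 15, and 8 of the 15 had a peak in at least 1 WT untreated list, at 96 reads or less.

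The 10 strongest lost regions had 102 to 311 reads in the untreated libraries. At Rpl3, a protein of the large ribosomal subunit (chromosome 15, 80071807-80072496), the pileups were 245 and 311 untreated and no peak was called with LPS, while the WT LPS lists still held the region at 83 and 73. At Csf1r, the receptor of the growth factor that keeps macrophages alive, they were 141 and 217, with 83 and 81 in WT LPS. Inside Acod1 a region at 151 and 163 was lost in KO cells, and the WT LPS lists held it at 205 and 234. Near Cebpa, a transcription factor of the myeloid lineage (chromosome 7, 35098697-35099198), 110 and 131 were read in untreated cells. Further lost regions were assigned to Fgd4, Plekhm1, Itprid2, Tsc22d3 (a glucocorticoid-induced regulator), Umad1, Nelfa, Tmem86a, Ccl4, Map1s and Cpeb3. The plot of the strongest gained and lost regions shows every library.

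**Figure D1:**
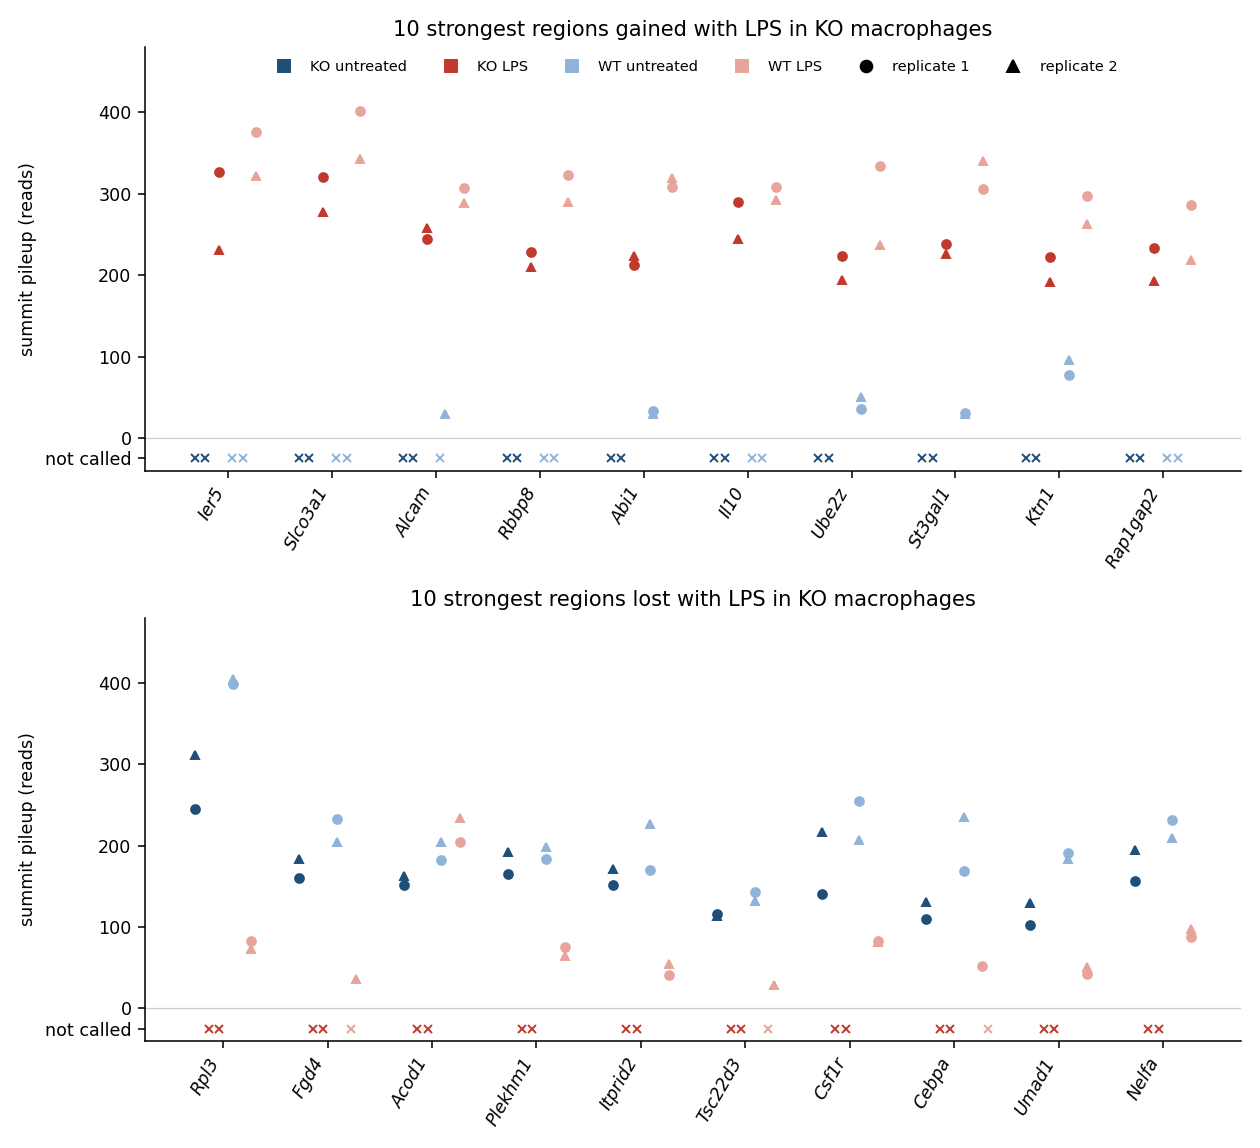
Summit pileup in reads (vertical axis) of the 10 strongest gained (top) and 10 strongest lost regions (bottom) by assigned gene, 1 point per library with replicate 1 as circles and replicate 2 as triangles, and crosses where no peak was called. The KO LPS libraries of the gained regions sit between 192 and 327 reads, and the lost region at Acod1 has WT LPS libraries at 205 and 234.

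In the 32347 regions held by all 4 lists, limma on the rank scores found 2833 regions raised (8.76%) and 2270 lowered (7.02%) with LPS at a Benjamini-Hochberg adjusted p under 0.05. Raised regions went from median pileups of 56 and 63 to 131 and 116, and lowered regions from 117 and 133 to 60 and 53. The median ratio of LPS to untreated pileup was 1.87 in raised and 0.485 in lowered regions, against 0.882 over all 32347. Ranks take out that common shift. On uncentred log2 pileups, whose median moved by -0.18, 2837 were raised and 5253 lowered, so that the raised share of the calls was 35.1% in place of 55.5%. These calls needed all 4 libraries: without KO LPS replicate 2 there were 0 raised and 0 lowered, with 8568 regions at an unadjusted p under 0.05. There were 1076 raised and 1131 lowered without KO LPS replicate 1, 902 and 208 without KO untreated replicate 1, and 1090 and 296 without KO untreated replicate 2.

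**Figure D2:**
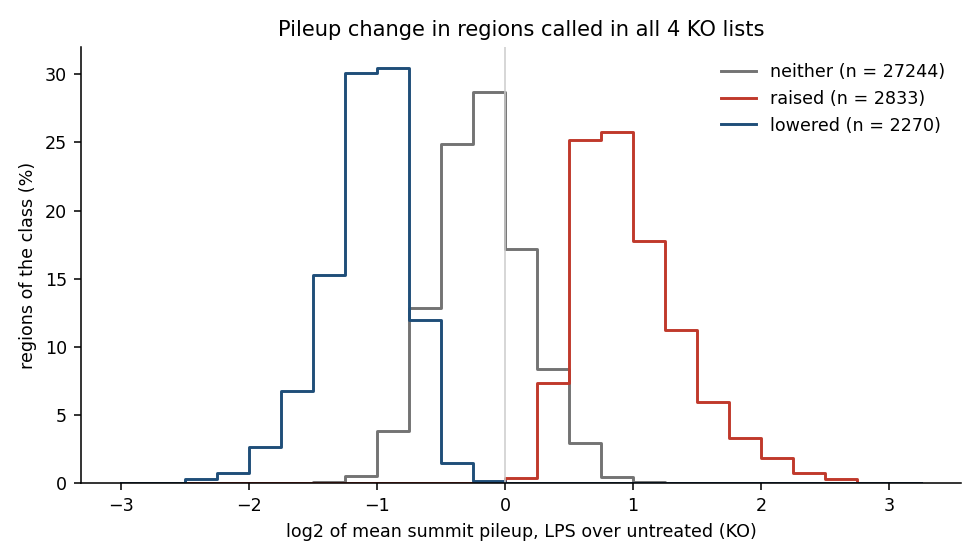
Distribution of the log2 ratio of mean summit pileup, LPS over untreated, in KO regions held by all 4 lists (horizontal axis) as the percent of the regions of each class (vertical axis), for the 2833 raised, the 2270 lowered and the remaining regions. All raised regions lie to the right of zero, and the remaining regions peak just left of it, with an overall median ratio of 0.882.

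The raised region with the smallest p lay at Abr, a regulator of small GTPases (chromosome 11, 76425713-76426199). It went from 39 and 41 reads untreated to 178 and 156 with LPS, a rank score difference of 2.75 (SE 0.165, limma adjusted p = 0.0082). At Smpdl3a, a phosphodiesterase that degrades cyclic dinucleotides (chromosome 10, 57818894-57819682), the pileups were 29 and 27 untreated and 200 and 165 with LPS (difference 3.69, SE 0.237). At Hsd17b12, an enzyme of fatty acid elongation, they were 31 and 30, then 156 and 141. In each of these regions the lower LPS library was more than 100 reads above both untreated libraries. The untreated pileups at Smpdl3a and Hsd17b12 were near the lowest called in the lists, of 23 or 24 reads. The region at Lgals9, the lectin galectin-9, went from 33 and 33 to 209 and 150. A region 2.58 kb from Dnah17, a dynein chain gene, went from 40 and 50 to 246 and 223. The other 7 of the 12 regions named by p were assigned to Babam2, Mdh1, Gm19410, Hectd4, Snf8, Tmem131 and Aldh3b3.

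Among lowered regions, the one at Rnf150 (chromosome 8, 83054784-83055369) went from 161 and 144 reads untreated to 32 and 31 with LPS (rank score difference -2.67, SE 0.199). At Axl, a receptor kinase with which macrophages take up dying cells, the pileups were 168 and 196 untreated and 62 and 52 with LPS. At Fos, the AP-1 subunit, a region 1.67 kb upstream of the start (chromosome 12, 85471996-85472474) went from 234 and 280 to 78 and 70 (difference -2.37, SE 0.188). At each of these genes both LPS libraries lay below both untreated ones. A region at Rxra, the shared partner of lipid-sensing nuclear receptors, went from 145 and 170 to 59 and 52. The others were assigned to Irf4, Gpr27, Acot1, Krt80, Mtss1, Tspan14, Stambp and Tmem94.

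Few promoters held a gained or lost region. Of 21263 RefSeq promoters, 47 held the summit of a gained region and 141 that of a lost one. These summits came from 45 of the 6272 gained and 133 of the 4372 lost regions. Among promoters searched for motifs, 79 held a raised and 142 a lowered region. Another 5805 held a region of all 4 lists that was neither. Gained promoter regions included those of the cytokine genes Il1a, with 102 and 120 reads in the LPS libraries, and Il1b, with 90 and 88. Gbp5 had 188 and 178, the interferon response gene Ifi44 78 and 81, and Cd80, a co-stimulatory ligand of T cells, 51 and 45. Outside these promoters, Il1a, Il1b and Cd80 each also had 1 lowered region. Lost promoter regions included that of Irak3, an inhibitory kinase of the TLR pathway, with 62 and 62 reads in untreated cells, and those of the chemokine gene Pf4 and the growth factor gene Hgf.

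Promoter regions held by all 4 lists rose at several response genes. The Il6 promoter region (chromosome 5, 30012705-30013436) went from 55 and 67 reads untreated to 190 and 185 with LPS, a rank score difference of 1.54 (SE 0.179, limma adjusted p = 0.00958). The Acod1 promoter region (chromosome 14, 103046657-103047230) went from 70 and 80 to 298 and 279 (2.0, adjusted p = 0.0082). That of Ptgs2, the inducible cyclooxygenase of prostaglandin synthesis, went from 58 and 67 to 172 and 158. In all of these the LPS libraries were at more than the sum of both untreated ones. At Nfkb2, which encodes the p100 precursor of the non-canonical NF-kB subunit, 101 and 137 reads became 303 and 260. The death receptor gene Fas went from 79 and 100 to 288 and 253, and Gbp2 from 73 and 76 to 233 and 215. Ifit1, an inhibitor of viral RNA translation, went from 75 and 90 to 219 and 170, and H2-Aa, an MHC class II chain, from 42 and 50 to 77 and 83.

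At Isg15, a ubiquitin-like protein, the promoter region went from 96 and 105 to 237 and 226 reads (adjusted p = 0.0144). Rsad2, the antiviral enzyme viperin, went from 191 and 254 to 387 and 346, Il1rn, the interleukin-1 receptor antagonist, from 123 and 145 to 238 and 249, and Cd274, the ligand PD-L1, from 169 and 138 to 330 and 250. These 4 calls ended when ranks or levels of the fold enrichment were used in place of the p-value.

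Promoter regions also fell. The Irf4 promoter region (chromosome 13, 30749039-30749477) went from 83 and 79 reads to 36 and 31 (-2.38, SE 0.19, limma adjusted p = 0.0082). The C1qb promoter region (chromosome 4, 136885989-136886647) went from 262 and 288 to 89 and 77 (-1.60, adjusted p = 0.00823). Dusp6, a phosphatase of ERK, went from 337 and 426 to 187 and 143, and Stat6, which transmits interleukin-4 signals, from 142 and 182 to 100 and 81. The last pair was not called on fold enrichment.

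**Figure D3:**
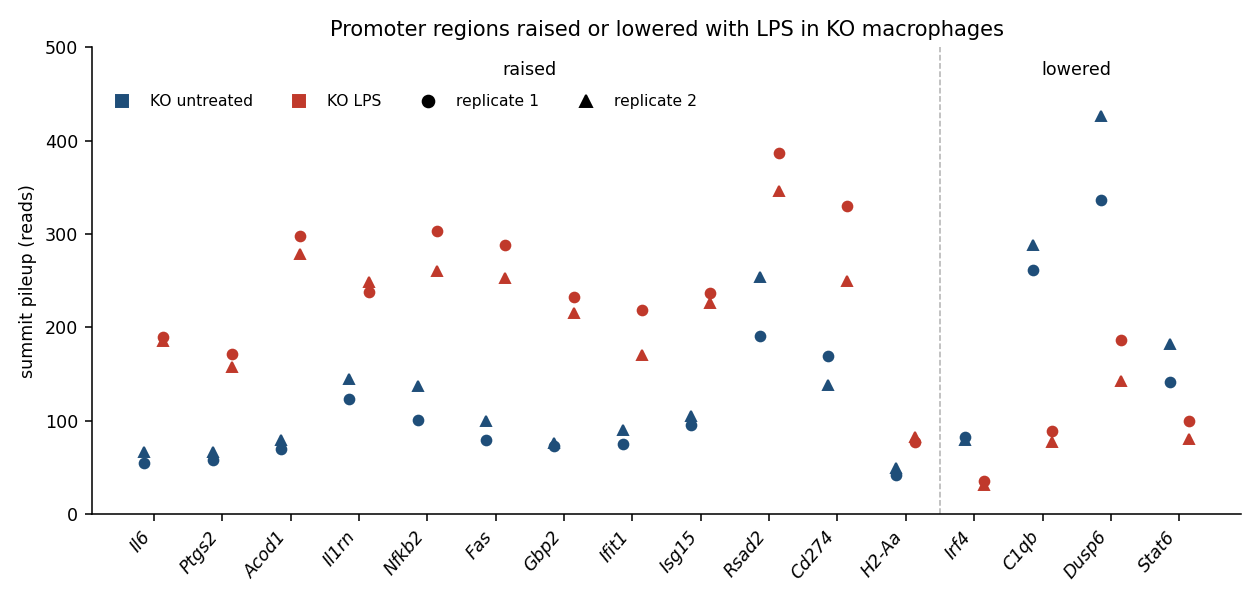
Summit pileup in reads (vertical axis) of 16 promoter regions by gene, with 1 point per KO library, blue for untreated and red for LPS, circles for replicate 1 and triangles for replicate 2. At Il6 the untreated libraries lie at 55 and 67 and the LPS libraries at 185 and 190, and at C1qb the order is the reverse, at 262 and 288 against 77 and 89.

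Motif matches were counted in the promoters of each class. ISRE matches were in 24 of the 79 promoters with a raised region (30.4%), against 3.34% of all 20376 promoters searched and 2.98% of those with a region in all 4 lists that was neither raised nor lowered. Isg15 held 3 overlapping ISRE matches and Ifit1 held 2. NF-kB matches were in 40.5% of the raised class and 22.9% of all promoters, and Il6 held 2 that overlap. AP-1 matches were in 12 of the 45 promoters with a gained region (26.7%), in 15.2% of the raised class, in 2.26% of the 133 with a lost region and in 7.15% of all promoters. The PU.1 motif GAGGAAG was in 38 of the 142 promoters with a lowered region (26.8%) and in 13.6% of all. The C/EBP motif TTGCNNAA was in 17.8% of the gained class and 10.3% of all, and the CTCF motif (CCA, any 2 bases, AG, any 2 bases, GGC) was in none of the 79 of the raised class and in 2.37% of all.

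**Figure D4:**
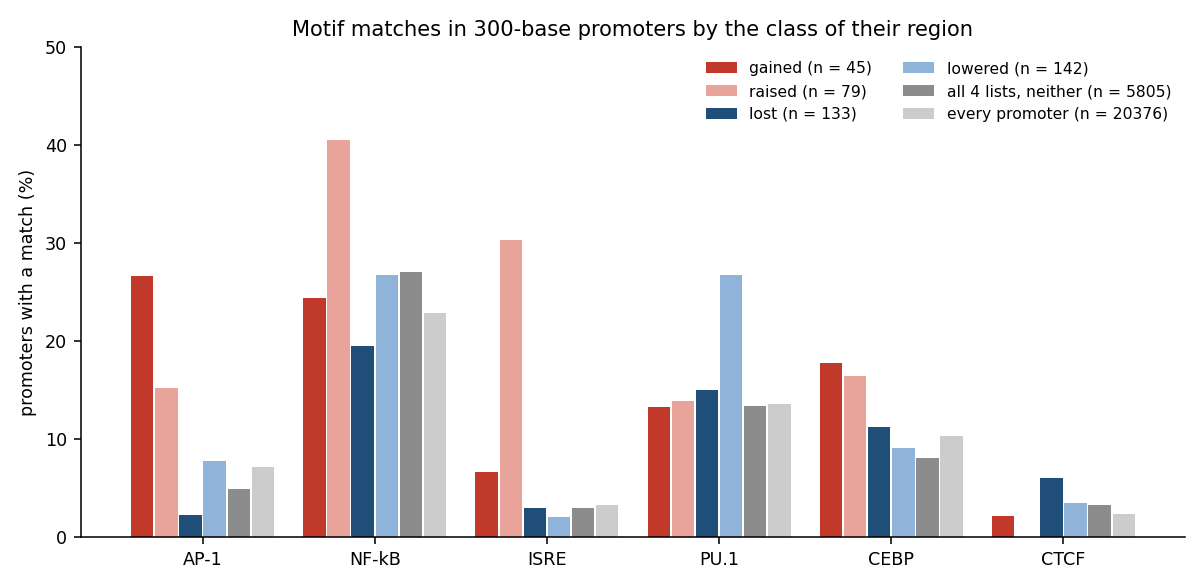
Percent of promoters of 300 bases (vertical axis) with at least 1 match to each of 6 motifs (horizontal axis), by the class of the region whose summit they hold, with n in the legend. The highest bars are those of the raised class for NF-kB, at 40.5%, and for ISRE, at 30.4%.

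Regions were then read by gene, each assigned to the nearest protein-coding gene within 50 kb. Of 14586 genes with a region, 3245 (22.2%) had a gained one, 2728 (18.7%) a lost one, 1766 (12.1%) a raised one and 1520 (10.4%) a lowered one. Over all regions assigned to genes, 9.05% were gained and 6.70% lost, and of those in all 4 lists 7.96% were raised and 6.56% lowered. Genes of the lists below carried up to 9.5 regions at the median, against 2 over all genes, so counts of genes are to be read with the shares of regions given beside them. Of the 168 raised and 77 lowered regions at listed genes, 78 and 37 were called under all 7 other scalings and cut-offs tried. Most of the calls that ended did so on the peak caller's fold enrichment, as log2 values or as ranks, and the counts of genes on that measure are given below where they moved by over 1.5 times.

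**Figure D5:**
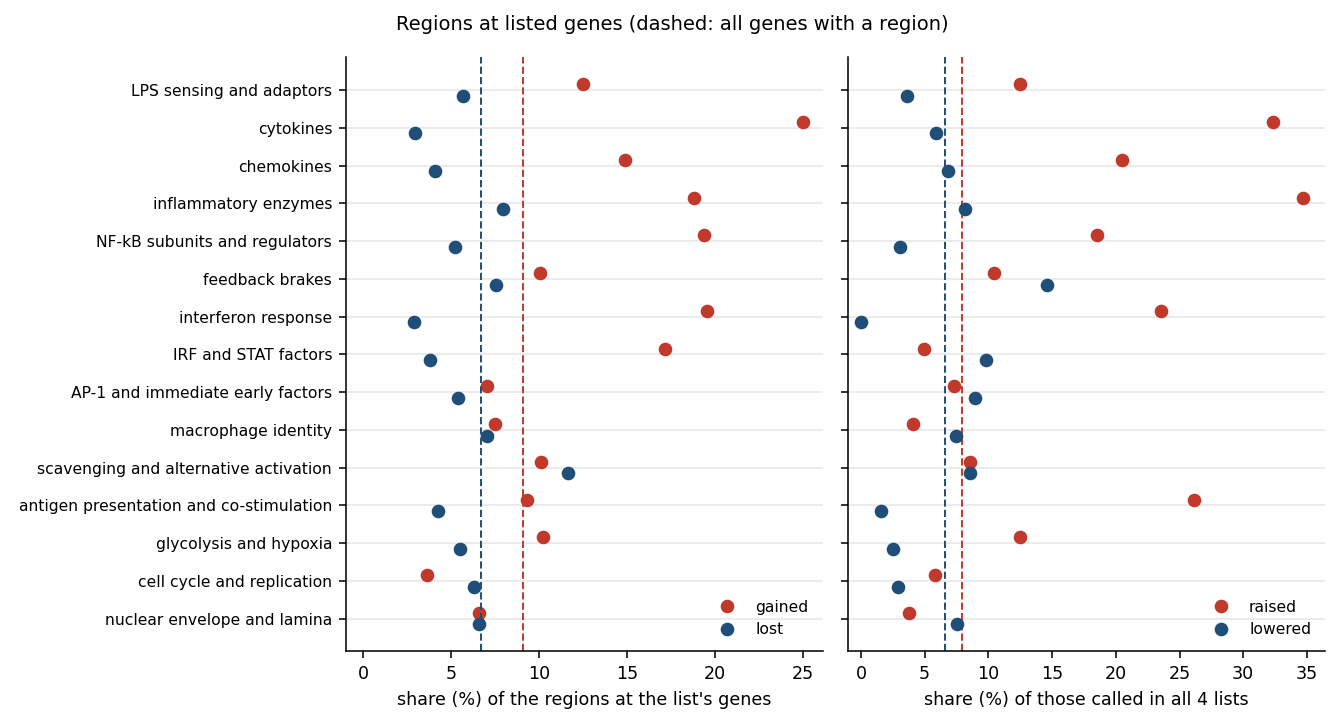
Share in percent (horizontal axis) of the regions at the genes of each list (vertical axis) that were gained or lost (left), and of those held by all 4 lists that were raised or lowered (right), with dashed lines for all genes with a region. Cytokines stand at 25.0% gained and 32.4% raised, and the interferon response at 0% lowered by rank of the p-value.

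The receptor gene itself held a lowered region. Among 18 LPS sensing genes 5 had a gained, 4 a lost, 5 a raised and 2 a lowered region. Their 88 regions included 11 gained (12.5%), and 5.68% were lost. In those held by all 4 lists 12.5% were raised and 3.57% lowered. Genes with a lowered region numbered 1 on log2 fold enrichment and 3 on its rank. The region at an end of Tlr4 went from 235 and 254 reads untreated to 126 and 99 with LPS (difference -0.94, limma adjusted p = 0.0242). Irak3 had 6 gained of 11 regions, the highest at 115 and 122 reads. Traf3, an adaptor of interferon induction, had 3 raised regions, the largest from 84 and 97 to 239 and 201, and 1 of the 3 was also called on fold enrichment. Cd14, Myd88, Ticam1, Irak1 and Irak4 had no gained, lost, raised or lowered region.

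Of the NF-kB subunits and regulators, 25 genes had a region. Of these, 17 had a gained, 8 a lost, 14 a raised and 3 a lowered one. Their 191 regions included 37 gained (19.4%), and 5.24% were lost. In those held by all 4 lists 18.6% were raised and 3.09% lowered. Genes with a lowered region numbered 7 on log2 fold enrichment and 8 on its rank. Nfkb1, the p50 subunit, had 4 gained of 19 regions, and 1 of its 3 raised regions, of which 2 were also called on fold enrichment, went from 73 and 83 reads to 202 and 190. At Tnfaip3, which encodes the inhibitor A20, a region 11.4 kb upstream of the start (chromosome 10, 19026551-19027108) went from 39 and 34 to 191 and 196 (2.85, SE 0.258, limma adjusted p = 0.0082), and a gained one had 204 and 158. The untreated pileups of this raised region were near the lowest called in the lists. A region inside Traf1, a TNF receptor adaptor, was gained at 233 and 216. All 3 gained regions of Nfkbie, an inhibitor of NF-kB, lay within 2.40 kb of its start, at 134 and 109, 113 and 64, and 85 and 66. Nfkbia, the inhibitor IkBa, had 4 gained regions but also a lost one inside the gene, at 170 and 165 untreated.

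Cytokine genes had the highest share of gained regions of the lists. Of 22 genes 16 had a gained, 4 a lost, 14 a raised and 4 a lowered region. Of their 136 regions 34 (25.0%) were gained and 2.94% lost. In those held by all 4 lists 32.4% were raised and 5.88% lowered. On log2 fold enrichment and on its rank, 10 genes had a raised region and 7 and 8 a lowered one. Without KO LPS replicate 1, 7 genes had a raised region, 9 without KO untreated replicate 2, 5 without KO untreated replicate 1 and 0 without KO LPS replicate 2, while genes with a gained region numbered 16 or 17. Il10 had 6 gained of 12 regions, and 1 of them, at an end of the gene, had 84 and 91 reads. A region 39.4 kb upstream of Il1b (chromosome 2, 129410271-129410760) went from 40 and 48 to 239 and 246 (2.63, SE 0.20, limma adjusted p = 0.0082). At Il12b, a chain of interleukin-12 and interleukin-23, a region 9.86 kb upstream (chromosome 11, 44389916-44390592) went from 60 and 42 to 285 and 232 (2.54, SE 0.312). Both regions had untreated pileups of 60 or less.

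Other cytokine genes differed in kind. Il1a had 3 gained regions, the highest at 220 and 195 reads, 5.92 kb from the gene. Csf2, the growth factor GM-CSF, had 4 raised and 2 gained regions up to 48.4 kb downstream of its start, and on fold enrichment none of these 4 was called. At Tnf, the region inside the gene went from 341 and 396 reads to 274 and 205 (-1.05, SE 0.178, limma adjusted p = 0.0187), while a region just past the gene was gained at 129 and 112. The strongest Tnf region was thus higher in untreated cells and the gained one was called in the LPS lists alone. Csf3 had no gained, lost, raised or lowered region, and Ifnb1, interferon beta, had 1 gained region, 31.0 kb away, at 55 and 43.

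Chemokine genes with a region numbered 15, of which 6 had a gained, 2 a lost, 7 a raised and 2 a lowered one. Of their regions 14.9% were gained and 4.05% lost, and of those held by all 4 lists 20.5% were raised and 6.82% lowered. On log2 fold enrichment 4 genes had a raised and 3 a lowered region, and on its rank 3 and 6. Ccl5, which attracts T cells, had 4 gained of 9 regions. The one 0.077 kb from an end of the gene (chromosome 11, 83530335-83530815) had 310 and 288 reads with LPS and 382 and 335 in WT LPS, and no untreated KO library held it. Cxcl10, an interferon-induced chemokine, had gained regions at 114 and 100 and at 103 and 107. At Ccl2, the monocyte attractant, the region at an end of the gene went from 346 and 402 to 220 and 184 (-0.86, limma adjusted p = 0.0248). On the log2 fold enrichment this Ccl2 region was not called.

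Inflammatory enzymes had 9 of 14 genes with a gained, 4 with a lost, 9 with a raised and 4 with a lowered region. Of their regions 18.8% were gained and 7.92% lost. In those held by all 4 lists 34.7% were raised and 8.16% lowered. Genes with a lowered region numbered 7 on log2 fold enrichment and on its rank. At Nos2, the inducible nitric oxide synthase, the region 0.084 kb from an end of the gene (chromosome 11, 78920417-78920974) went from 59 and 91 reads to 346 and 296 (2.22, SE 0.256, limma adjusted p = 0.00947). At Ptges, which makes prostaglandin E2, a region inside the gene went from 57 and 60 to 299 and 255 (2.27, SE 0.164). Ch25h, which makes the oxysterol 25-hydroxycholesterol, had a region 25.6 kb from the gene that went from 36 and 43 to 194 and 177. In these 3 regions the lower LPS library was above 3 times the higher untreated one. Ptgs1, the constitutive cyclooxygenase, moved the other way, with 3 lost regions and 1 lowered from 88 and 88 to 46 and 35. Acod1 held both kinds, with 2 gained, 3 lost, 1 raised and 1 lowered of 15 regions.

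Interferon response genes had gained and raised regions, and no lowered one by rank of the p-value. Of 40 genes with a region 20 had a gained, 5 a lost, 15 a raised and 0 a lowered one, at a limma adjusted p under 0.05. Of its 174 regions 34 (19.5%) were gained and 2.87% lost, and 23.5% of those held by all 4 lists were raised. The raised and lowered counts depended on the measure. On log2 fold enrichment 7 genes had a raised and 4 a lowered region, and on its rank 5 had a raised and 5 a lowered one. Raised genes numbered 6 without KO LPS replicate 1, 4 without KO untreated replicate 1, 6 without KO untreated replicate 2 and 0 without KO LPS replicate 2, and lost genes 11 without KO untreated replicate 1. Trim30a, an interferon-induced ubiquitin ligase gene, had 4 gained of 6 regions, with 131 and 128 reads at the strongest. Usp18, which removes ISG15 from proteins, had a gained region at 169 and 137. Ifit2 had a region just outside the gene that went from 38 and 45 to 203 and 181 (2.09, SE 0.196), which was not called on the rank of fold enrichment. Ifnar2, a receptor chain for type I interferon, had 4 gained of 13 regions, and the strongest, 9.91 kb upstream, had 208 and 226. Isg20, Parp14, Cmpk2, Ifitm3 and Ifi205 also had raised regions, of which that of Ifitm3 alone was called on the rank of fold enrichment. Dhx58, Oasl2, Eif2ak2, Trim25, Xaf1 and Igtp had regions, none of them gained, lost, raised or lowered.

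Transcription factors of the response were mixed. Of 14 IRF and STAT genes with a region 7 had a gained, 4 a lost, 3 a raised and 5 a lowered one. Of their regions 17.1% were gained and 3.81% lost, and of those held by all 4 lists 4.92% were raised and 9.84% lowered. On log2 fold enrichment 2 genes had a raised and 3 a lowered region. Stat3 had a gained region inside the gene at 201 and 193 reads. Irf2 had 7 gained of 30 regions. At Irf1, a region 24.5 kb downstream of the start went from 108 and 134 to 38 and 45 (-2.77, SE 0.56, limma adjusted p = 0.0277), and 2 others were gained at 66 and 66 and at 32 and 36. Irf8, a factor of the macrophage lineage, had a region that went from 139 and 175 to 95 and 69.

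Of 25 AP-1 and immediate early genes 10 had a gained, 5 a lost, 6 a raised and 7 a lowered region. By region 7.03% were gained, below the 9.05% of all genes, and 5.41% lost. In those held by all 4 lists 7.32% were raised and 8.94% lowered. Klf6 had a region 32.6 kb upstream of its start that went from 37 and 37 reads to 202 and 243 (2.91, limma adjusted p = 0.0082). Fosl2 had gained regions at 211 and 167 and at 115 and 91. Jun had 3 lowered regions, 2 of them also called on fold enrichment, from 75 and 85 to 35 and 35 in the one with the smallest p. Myc, the growth regulator, had 6 lost of 9 regions, at 129 and 97, 98 and 111, 79 and 69, 41 and 48, 32 and 33, and 42 and 36 reads in untreated cells. The first 2 of these lay within the gene.

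Feedback brakes, the genes that limit cytokine and kinase signals, had 10 of 18 with a gained, 8 with a lost, 6 with a raised and 7 with a lowered region. By region they were near all genes for gained and lost, at 10.1% and 7.55%, and 10.4% of those held by all 4 lists were raised and 14.6% lowered. Lowered genes numbered 4 on log2 fold enrichment. Socs3, an inhibitor of STAT3 signalling, had 3 gained, 2 lost, 3 raised and 2 lowered of 15 regions, and 1 of the 3 raised was also called on fold enrichment. Its largest difference was at a region 8.70 kb upstream of the start, from 61 and 79 reads to 333 and 250 (2.26, limma adjusted p = 0.0082). Its region at 117959760 on chromosome 11 was called lowered by rank although its pileups of 111 and 127 untreated and 137 and 115 with LPS overlapped, and on log2 pileups it was not called. Dusp1, a phosphatase of p38, had lost regions at 226 and 229 and at 151 and 146, and Inpp5d, the lipid phosphatase SHIP1, had 3 lost and 3 lowered of 12. None of the 3 lowered was called on fold enrichment. Dusp2 had 2 raised regions, from 36 and 49 to 139 and 113 in the one with the smaller p.

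Macrophage identity genes had regions in both directions. Of 30 genes 9 had a gained, 9 a lost, 4 a raised and 9 a lowered region, and 7.46% of 228 regions were gained and 7.02% lost. Of those held by all 4 lists 4.08% were raised and 7.48% lowered, where all genes had 7.96% and 6.56%. Genes with a raised region numbered 7 on log2 fold enrichment and 6 on its rank. At Cx3cr1, the fractalkine receptor, a region 30.7 kb downstream of the start (chromosome 9, 120037365-120037964) went from 181 and 218 reads to 56 and 56 (-1.58, limma adjusted p = 0.0108). Mertk, a receptor for dying cells like Axl, had 3 lost and 2 lowered regions, and 0.633 kb upstream of its start the pileups were 134 and 165 untreated and 99 and 72 with LPS (adjusted p = 0.0463). A region at the start of Lgals3, the lectin galectin-3, was lost from 188 and 191. Cybb, the catalytic subunit of the phagocyte oxidase, moved up, with 3 gained regions and 1 that went from 36 and 40 to 150 and 145 (2.44). Spi1, Adgre1, Cd68, Itgam, Fcgr1, Fcgr3 and Lyz2 had no gained, lost, raised or lowered region, Spi1 being the gene of PU.1 itself.

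Scavenging and alternative activation genes had similar numbers of lost and gained regions, 15 and 13 of 129. These were 11.6% and 10.1%, where all genes had 6.70% and 9.05%. Of 17 genes with a region 8 had a gained, 7 a lost, 4 a raised and 4 a lowered one. In the regions held by all 4 lists 8.57% were raised and 8.57% lowered. Pparg, a lipid-sensing receptor, had 3 lost and 2 gained of 18 regions and 1 that went from 159 and 215 reads to 73 and 68. Cd36, a scavenger receptor for oxidised lipoprotein, had 3 lost of 8, and Scarb1, the HDL receptor, 4 lost of 17. Those of Cd36 had 29 to 67 reads in untreated cells. Mrc1, the mannose receptor, had 2 lost, 1 lowered and 1 gained region, and Marco, a scavenger receptor for bacteria, had 3 raised ones, from 37 and 38 to 86 and 69 in the one with the smallest p, and none of these 3 was called on fold enrichment. Abca1, a cholesterol exporter, had a gained region at 162 and 139.

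Antigen presentation and co-stimulation genes had raised regions, while their share of gained regions was near that of all genes. Of 21 genes 8 had a gained, 5 a lost, 11 a raised and 1 a lowered region. By region 9.32% were gained and 4.24% lost, where all genes had 9.05% and 6.70%. In those held by all 4 lists 26.2% were raised and 1.54% lowered, where all genes had 7.96% and 6.56%. On log2 fold enrichment and on its rank, 6 genes had a raised region and 4 and 3 a lowered one. Cd86, a co-stimulatory ligand, had 4 raised and 2 gained of 12 regions, and 2 of the 4 were also called on fold enrichment. Ciita, the activator of MHC class II genes, had a region that went from 41 and 57 reads to 109 and 116, and Icam1, an adhesion molecule, 1 from 56 and 70 to 116 and 92 (limma adjusted p = 0.0174). Tap1, Tap2, Tapbp, Psmb8 and Psmb9, which make and load MHC class I peptides, had no gained, lost, raised or lowered region.

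Glycolysis genes had 6 of 21 with a gained, 5 with a lost, 6 with a raised and 2 with a lowered region. By region 10.2% were gained and 5.51% lost, where all genes had 9.05% and 6.70%. In those held by all 4 lists 12.5% were raised and 2.5% lowered, where all genes had 7.96% and 6.56%. Hif1a, the oxygen-sensitive factor, had 6 gained of 11 regions, at 30 to 90 reads. Pfkfb3, which makes the activator of phosphofructokinase, had 3 gained and 3 raised of 21. One raised region, which alone of the 3 was also called on fold enrichment, went from 35 and 32 to 133 and 140 (2.23, limma adjusted p = 0.0082). Hk2, a hexokinase, had a region that went from 53 and 66 to 185 and 148. Pfkl, Aldoa, Tpi1, Gapdh, Pgk1, Pgam1, Pkm and Ldha, core enzymes of glycolysis and lactate formation, had no region in these classes.

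Of 29 cell cycle genes 4 had a gained, 5 a lost, 3 a raised and 2 a lowered region. By region 3.60% of 111 were gained and 6.31% lost, where all genes had 9.05% and 6.70%. In those held by all 4 lists 5.80% were raised and 2.90% lowered, where all genes had 7.96% and 6.56%. Genes with a lowered region numbered 1 on log2 fold enrichment and 4 on its rank. Of them Cdk6, a kinase of the first phase of the cycle, had 3 lost, 1 gained and 2 raised of 17, the largest from 81 and 67 reads to 209 and 193. Of the nuclear envelope and lamina genes, to which Lmna belongs, 22 had a region. Among these, 3 had a gained, 6 a lost, 2 a raised and 2 a lowered one. By region 6.59% each were gained and lost, and in those held by all 4 lists 3.77% were raised and 7.55% lowered. Syne3, which links the envelope to the cytoskeleton, had 3 lowered regions, and the one at 243 and 261 reads untreated had 126 and 119 with LPS (limma adjusted p = 0.0332). On fold enrichment none of these 3 was called, and no gene of the list had a lowered region. Syne2, of the same family, had a gained region inside the gene at 163 and 164. Lmnb1, Lmnb2 and Emd, other proteins of the lamina and inner membrane, had regions in none of the classes.

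The WT lists, which the choice of regions did not use, held most of the KO classes in the same treatment. Of the gained regions 92.5% and 89.1% were in the WT LPS lists and 21.2% and 22.1% in the WT untreated lists. Of the lost regions 90.4% and 92.2% were in the WT untreated lists, and 50.2% and 41.6% in the WT LPS lists. Over all 62632 regions, 83.8% and 80.3% were in the WT LPS lists and 77.2% and 78.2% in the WT untreated lists. WT lists were longer than KO lists, with 53942 to 59750 peaks, and with equal peak numbers the mean shares were 81.3% and 11.3% for gained and 80.6% and 23.96% for lost regions. Gained in WT by the same rule were 3776 (60.2%) of the KO-gained regions, and lost in WT were 1408 (32.2%) of the KO-lost regions. Over all regions the shares gained and lost in WT were 9.66% and 4.94%. Of the raised regions held by all 8 lists, 2492 of 2545 (97.9%) had a higher mean rank score in WT LPS than in WT untreated cells, and of the lowered ones 2118 of 2177 (97.3%) a lower one. Over all 31203 regions held by the 8 lists 47.1% were higher. The KO difference between treatments was not tested against the WT difference region by region.

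Some gained regions were in no WT LPS list, 314 of 6272, where 8106 of all 62632 regions were in none. The strongest of these 314 had lower pileups than the strongest gained regions. Among them were 120 and 120 reads at Cyld, which removes ubiquitin chains in NF-kB signalling, 100 and 87 at Plpp3 and 110 and 86 at Noct. Lost regions without a peak in either WT untreated list numbered 201 of 4372, where 11497 of all 62632 regions had none. These lost regions included 97 and 138 reads at Rab11fip5 and 103 and 123 at Ezr, which ties the membrane to actin. Whether these differ between the genotypes beyond the spread of the libraries was not tested.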

How the data were processed

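ATAC-seq peak lists of 4 KO libraries, with 4 WT libraries for comparison, were used as the authors deposited them, 1 list per library and replicates not pooled. BWA 0.7.12, MACS2 and mm10 are given in the submitters' processing notes. For each deposited peak there was a fold enrichment, a ratio to local background made by the authors' peak caller. The deposited lists also gave -log10 p and -log10 q values, and a score that is 10 times the -log10 p. The authors gave the summit as a distance from the peak's start. The filter applied to the lists, and read totals, are not given in the sources used here, so depth per sample is unknown. Intervals for single values were not computed.

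From these, peaks that overlapped by 1 bp were merged into regions, and regions were placed on 21900 protein-coding genes of a RefSeq table of the same build. Strength is the mean within-list percentile of the -log10 p. The summit pileup is the whole number of reads that reproduces both fold and p within 0.001 on the -log10 scale. Ranks of -log10 p were turned into normal scores, and limma compared treatments over all 32347 shared regions, with Benjamini-Hochberg adjustment at 0.05. Library values were compared by exact permutation. Named regions were the 15 strongest gained and lost, and the 12 raised and lowered with the smallest p, and a few named by the rule or the lists are not reported here. Beyond these, list members and promoter regions chosen after their values were seen are named. Members, the 21 gene lists (406 of 409 genes matched), motifs and tests were chosen with earlier results of these data known. Versions were limma 3.58.1 in R 4.3.3, Python 3.11.15, numpy 2.4.6, pandas 2.3.3 and scipy 1.17.1.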

Additional observations from a re-analysis of the deposited data

Results flagged for a closer look

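The KO and WT comparisons placed some regions in opposite classes, with all libraries of 1 genotype on one side and all of the other on the opposite side. Over all regions 4.94% were lost with LPS in WT cells. Regions gained with LPS in KO cells and lost with LPS in WT cells numbered 6, or 0.0957% of the gained. One, assigned to Riok2, had 78 and 60 reads in the KO LPS libraries and 89 and 79 in the WT untreated libraries. Another, at Cry1, a repressor of the circadian clock, had 55 and 42 in KO LPS and 33 and 42 in WT untreated cells. Over all regions 9.66% were gained with LPS in WT cells, and those lost in KO cells and gained in WT cells numbered 9, or 0.206% of the lost. The one at Nfkbid, a nuclear inhibitor of NF-kB, had 81 and 80 in KO untreated and 129 and 98 in WT LPS cells, and that at Rbm47 had 48 and 61, and 81 and 81. Whether KO and WT differed at these regions was not tested, and a missing peak may have been just under the pileup that its site needed. The Nfkbid region, at 81 and 80 reads, stood only at percentile 6.20 of strength.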

How the results depend on the processing

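Gained and lost counts were within 1.5 times their value with equal peak numbers (5732 and 4877), with -log10 p of at least 20 (4959 and 4129) and at 100 bp overlap. Without 1 library they ranged from 7250 to 10133 and from 5349 to 7889, since fewer lists must agree. Leaving out 1 library gave 0 to 1090 raised and 0 to 1131 lowered regions, and both were 0 without KO LPS replicate 2 (lowest limma adjusted p 0.0556). On log2 pileups 4750 were raised and 4439 lowered, and uncentred 5253 were lowered. Of the 2833 raised and 2270 lowered calls, 2212 and 1561 were also called on log2 fold enrichment and 2798 and 2149 on log2 pileup, and none was called in the opposite direction under either. Replicate numbers did not pair the libraries (correlation of deviations -0.046), and with the replicate block 2615 were raised and 2027 lowered. The KO regions' mean shares held in WT lists moved with equal peak numbers from 90.8 to 81.3% (gained, LPS), 21.6 to 11.3% (gained, untreated), 45.9 to 23.96% (lost, LPS) and 91.3 to 80.6% (lost, untreated). The differences in peak number and covered length turned negative with -log10 p of at least 20 (-51.5 peaks and -0.36 Mb), and ranged from -535.5 to 3683.5 peaks and from -1.05 to 1.17 Mb without 1 library. The cause was not tested. Of the counts of genes per list, 617 were within 1.5 times under the alternatives and 223 were not. Of the comparisons for the named raised and lowered regions, 240 kept the call and 24, all without KO LPS replicate 2, lost it. The pileup needed for a call limits what a missing peak can show.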

Other observations

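Some loci had many regions of 1 class. Met, the receptor of hepatocyte growth factor, had 10 gained of 19 regions and no lost one, and Rcl1 had 9 of 13. Itgb8, an integrin that activates TGF-beta, and Slc1a2, a glutamate transporter, had 8 gained regions each, and Spred1, an inhibitor of Ras signalling, had 8 of 16. Pla2g4a, the phospholipase that releases arachidonic acid, had 7 of 20. After Myc, with 6 lost of 9 regions, Atp6v0d2, a subunit of the vacuolar proton pump, had 5 lost of 12, and Cpeb4 and Asap1 also had 5. Tspan14, a tetraspanin, had 7 lowered of 13 regions, and Pde4b, a phosphodiesterase of cyclic AMP, had 7 raised of 15. In all, 294 genes had at least 3 gained regions, 139 at least 3 lost ones, and 806 had both kinds. By windows of 1 Mb, the highest number of gained regions was 24 of 83, on chromosome 5 from 64000001 to 65000000, a window that holds Klf3 and Tlr1. The window of Tnfaip3 on chromosome 10 had 21 of 63. Gained regions outnumbered lost ones in 963 of 2162 windows and the reverse held in 606.

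Some microRNA genes of the LPS response lay near gained regions and others did not. The counts per gene are small, and they were not tested against the 10.0% gained over all regions. Within 20 kb of Mir155, whose product targets inhibitors of inflammatory signalling, 3 of 8 regions were gained. The nearest, 0.855 kb away, had 202 and 135 reads in the KO LPS libraries, with 53 and 34 in WT untreated cells and no peak in KO untreated cells. Mir21a had 2 gained of 11 regions, with 185 and 153 reads at 1.51 kb, and 2 lowered ones. The neighbours Mir221 and Mir222 shared 3 gained of 6 regions. Mir146b had 1 gained of 9 regions, at 105 and 109. Mir9-1 had 1 gained of 2 regions, and Mir125a 1 gained and 1 raised of 6. Mir27a had a lowered one, from 208 and 245 to 54 and 60 (difference -1.96, limma adjusted p = 0.00865). Mir146, Mir223, Mir147, Mir132, Mir212 and Mir142 had no gained, lost, raised or lowered region. The mature sequences from RefSeq (GRCm38.p6), with the seed (bases 2 to 8) in capitals, show that the products of Mir221 and Mir222 share a seed and those of the others listed do not.
miR-155-5p: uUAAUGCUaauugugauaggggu
miR-21a-5p: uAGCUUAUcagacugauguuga
miR-221-3p: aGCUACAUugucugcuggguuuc
miR-222-3p: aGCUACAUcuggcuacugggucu
miR-146b-5p: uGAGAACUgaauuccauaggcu
miR-27a-3p: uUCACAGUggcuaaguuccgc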
